A study of Mus musculus with 4 samples.

Results

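The comparison set an array of NIH-3T3 fibroblasts kept with CA39 (titled 3T3-CA39) against an array of untreated fibroblasts (titled 3T3-control), 2 of the 4 one-colour arrays of the study. NIH-3T3 is an established mouse embryonic fibroblast line, labelled WT here. Cells had reached confluence in DMEM with fetal bovine serum and antibiotics. The CA39 culture received 20 µM CA39 dissolved in DMSO and was collected after 24 h, while the control carries the label None for treatment, with no mention of DMSO. The other 2 arrays held cells given 20 µM AR7 or 20 µM CA77 for 24 h, also in DMSO, and are set beside CA39 where they bear on a result. Each group was 1 culture on 1 array, so there was no replicate, no test was possible, and compound, vehicle and culture cannot be told apart against the untreated array. Compound and culture cannot be told apart against AR7 and CA77 either, and whether the 4 cultures came from the same stock and passage is not given in the sources used here. Of 36932 gene names with a value on both arrays, 28041 were well above background on at least 1 of them and were compared, 16374 of these under a gene symbol.

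CA39 is a small molecule made from AR7 to raise chaperone-mediated autophagy (CMA). In CMA the chaperone Hsc70 recognises single proteins by a short motif, and they pass into the lysosome through the receptor LAMP2A. The compounds were designed to act on retinoic acid receptor alpha, a nuclear receptor that holds CMA down. The question the arrays address is how such a compound acts on gene expression in fibroblasts. Fibroblasts make and remodel extracellular matrix, and when stimulated they also secrete chemokines, cytokines and complement proteins.

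Levels are log2 of the normalized signal of a probe, and a difference is CA39 minus untreated on that scale. A probe's level depends on its own brightness, so levels were compared between arrays and not between genes. Where a probe was not well above background on an array, the lowest detected signal there took its place unless its own was higher. The fold is then a bound, written as "at least". Such a bound holds for the processing used here, and some alternatives gave a smaller one. The 399 probes printed 10 times per array had a median SD of 0.12 between spots on the untreated array and 0.09 on CA39. A difference of 2 arrays therefore carries a within-array measurement tolerance of 0.15, which covers spots and not cultures. Over the 21442 genes measured on both arrays, the median difference was -0.03 with an SD of 0.51, and 8585 of them lay within the tolerance.

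With CA39, 1089 genes (3.88% of those compared) were 2-fold or more higher and 403 (1.44%) were 2-fold or more lower. These included 133 genes past 8-fold higher and 34 past 8-fold lower. Both arrays measured 737 of the higher and 239 of the lower genes, and the rest are bounds. Among the genes with a symbol, 708 were higher and 273 lower. In the plot of untreated against CA39 levels, Dcn and Cxcl1 lay far under the diagonal and Mgp and Tnfrsf11b far over it, and all 4 genes encode secreted proteins.

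**Figure D1:**
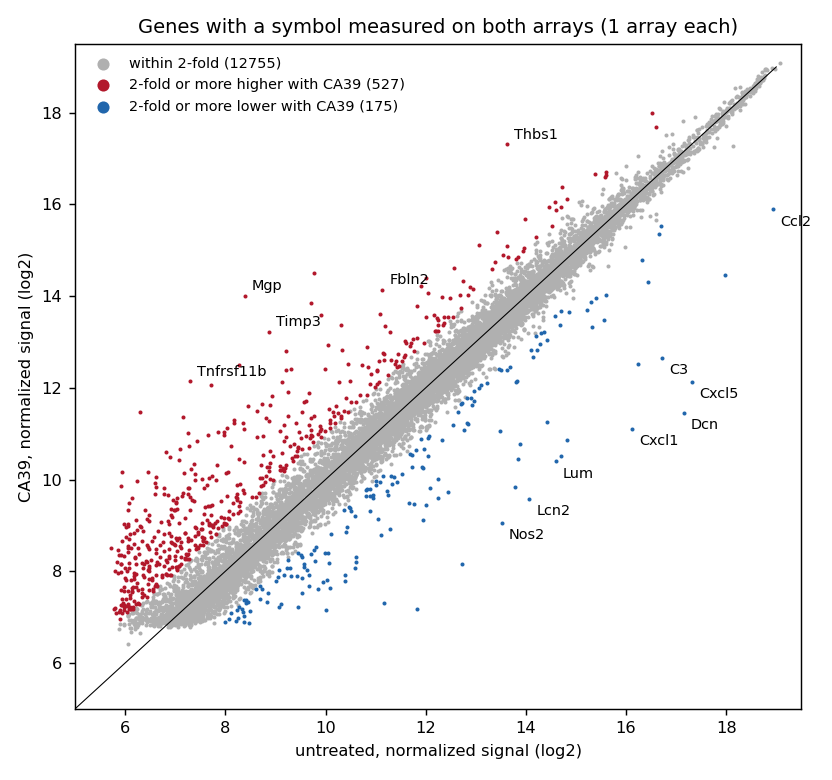
Normalized signal (log2) of 13457 genes with a symbol measured on both arrays, untreated on the x axis and CA39 on the y axis, 1 point per gene and 1 array per axis. Most points follow the diagonal, 527 are 2-fold or more higher with CA39 and 175 are 2-fold or more lower, with Dcn, Cxcl1 and Cxcl5 among the brightest genes on the untreated array that lie far below it.

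Position on the array moved with the counts. In grid rows over 160, of 384, 444 of 16434 genes (2.7%) were higher and 268 (1.63%) lower, while in rows 1 to 160 the counts were 645 of 11607 (5.56%) and 135 (1.16%). The share higher went from 8.04% in rows 1 to 32 to 1.77% in rows 353 to 384, and the share lower from 0.837% to 2.9%. The part of position in single genes was not tested, so the grid row is given beside many of the results that rest on a single probe. Requiring 2 different probes of a gene past 2-fold the same way left 88 genes higher (1.24% of the 7091 with at least 2 probes compared) and 37 lower (0.522%). In 4966 genes both of the 2 brightest probes were measured on both arrays, and the differences from the 2 probes lay a median of 0.14 apart. The brighter probe was past 2-fold higher in 113 of these genes, and the other probe was also higher in 97 and also past 2-fold in 56. For the 41 genes lower by the brighter probe, the other was lower in 38 and past 2-fold in 21.

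**Figure D2:**
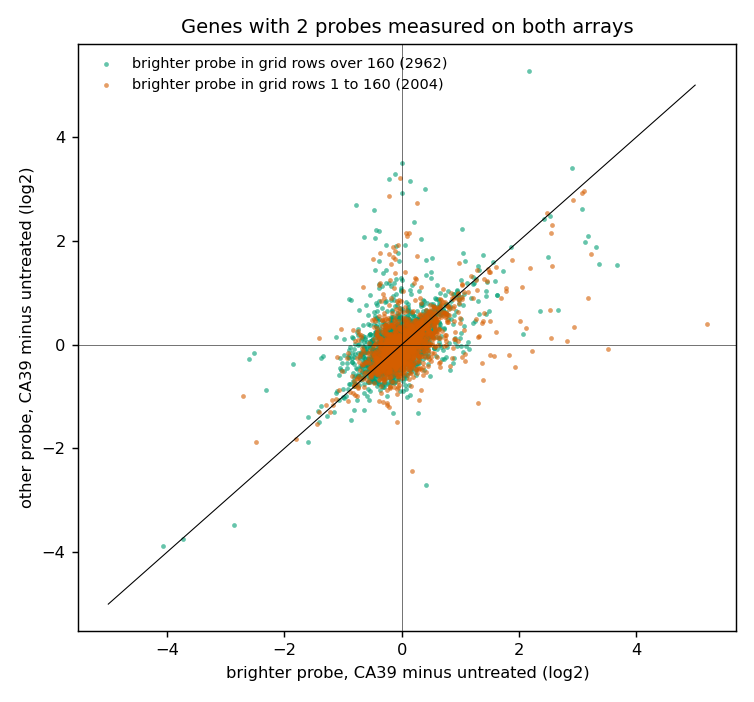
CA39 minus untreated (log2) from the brighter probe (x axis) and from the second probe (y axis) of each of 4966 genes, 1 point per gene, coloured by whether the brighter probe lay in grid rows over 160 (2962 genes) or rows 1 to 160 (2004 genes). Points on the diagonal agree, and points along either axis are genes in which only 1 probe moved.

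The chemokines, which draw leukocytes to tissue, were low on the CA39 array. Of 17 compared, 8 (47.1%, beside 1.44% of all genes) were past 2-fold lower and 0 higher, with a median of -0.60 (from -2.43 to -0.31 over the alternatives) against -0.02 over all genes compared. Cxcl5, a neutrophil chemokine, was at 17.32 untreated, 17.84 with AR7, 12.14 with CA39 and 17.83 with CA77, 36.3-fold lower with CA39 than untreated (grid row 145). Cxcl1, another neutrophil chemokine (grid row 289), was at 16.11, 16.69, 11.10 and 16.76 on the same arrays in the same order, 32.3-fold lower. Only the CA39 array was low in both genes. Ccl2, the main monocyte chemoattractant, was among the brightest probes at 18.93 untreated, 18.95 with AR7, 15.89 with CA39 and 18.94 with CA77, 8.19-fold lower (grid row 196). Its neighbour in the CC family Ccl7 read 17.98, 18.12, 14.46 and 18.33, 11.4-fold lower (grid row 285). The other 4 members past 2-fold were Ccl5 (-2.64, grid row 18), Ccl3 (-2.45, grid row 146), Ccl8 (-2.43, grid row 41) and Cxcl10 (-1.30, grid row 229). Of the 8 genes, 4 lay in grid rows over 160. The members that did not pass 2-fold lay between -0.60 (Cxcl14, a bound) and 0.14 (Ccl25).

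Targets and regulators of NF-kB, the transcription factor that drives much of the inflammatory program, were low as well. Of 21 cytokines and NF-kB target genes compared, 9 were past 2-fold lower (beside 1.44% of all genes) and 1 higher (beside 3.88%), with a median of -0.81, and 7 of the 9 lay in grid rows over 160. Nfkbia, the inhibitor that NF-kB induces to shut itself off, was at 16.32 untreated, 16.48 with AR7, 14.78 with CA39 and 16.68 with CA77 (grid row 339). Tnfaip3, a further feedback inhibitor (A20), differed by -1.68 (grid row 38), and Nfkbiz, a nuclear cofactor, by -1.27 (grid row 354). Relb, an NF-kB subunit, was lower by both of its probes, each at -1.07. Genes that hold the pathway back and genes it activates were thus low on the same array. Lif, an interleukin-6 family cytokine, differed by -1.24. Il1a, encoding interleukin 1 alpha, was at least 3.73-fold lower (grid row 6), as its CA39 signal was not well above background. Csf2 was at least 2.1-fold lower and Vcam1 2.1-fold lower, but both calls fell under 2-fold in at least 1 alternative processing. Il6 went the other way, at 6.66 on untreated and 8.88 on CA39, 4.64-fold higher from a dim signal.

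The acute-phase and complement genes were split. Of 13 compared, 4 were lower and 2 higher (beside 1.44% and 3.88% of all genes), with a median of -0.50. C3, the central complement component, was lower by 2 probes, the brighter at 16.72 untreated, 16.80 with AR7, 12.65 with CA39 and 16.84 with CA77. Its second probe read 15.38, 15.51, 11.51 and 15.46. The 2 probes gave 16.8-fold and 14.7-fold lower. Lcn2, which binds bacterial siderophores, was at 14.07, 13.98, 9.59 and 13.57 on untreated, AR7, CA39 and CA77, 22.4-fold lower (grid row 207), and it counts among the NF-kB targets above as well. The complement proteases C1s1 (-1.32) and C1s2 (-1.41 and -1.29 by 2 probes) were lower too, but as near-identical copies they may share signal. In the opposite direction, Hp, which binds free hemoglobin, read 11.60 untreated, 9.01 with AR7, 12.98 with CA39 and 8.99 with CA77. Nos2, the inducible nitric oxide synthase of inflamed tissue, was at 13.52, 13.18, 9.06 and 13.52 in the same order of arrays, 22.0-fold lower with CA39 (median grid row 323.5 over its spots).

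Promoter windows of 2 of these genes are shown because their NF-kB sites are textbook examples and the genes were low together. The windows, from RefSeq on GRCm38.p6, run from 250 bases before to 50 after the start of the gene, and capitals mark each match of the NF-kB consensus on either strand. The Cxcl1 window is chr5:90890995-90891294 on the plus strand, where 2 overlapping matches begin 71 and 70 bases before the start. The Nfkbia window is chr12:55492598-55492897 on the minus strand, with a match 29 bases before the start.
Cxcl1: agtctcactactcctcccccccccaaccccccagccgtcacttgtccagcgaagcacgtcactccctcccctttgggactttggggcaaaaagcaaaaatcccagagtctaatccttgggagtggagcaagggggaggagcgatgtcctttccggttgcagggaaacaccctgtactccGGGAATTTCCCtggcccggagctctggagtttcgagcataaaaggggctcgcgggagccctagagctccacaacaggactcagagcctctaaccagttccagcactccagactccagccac
Nfkbia: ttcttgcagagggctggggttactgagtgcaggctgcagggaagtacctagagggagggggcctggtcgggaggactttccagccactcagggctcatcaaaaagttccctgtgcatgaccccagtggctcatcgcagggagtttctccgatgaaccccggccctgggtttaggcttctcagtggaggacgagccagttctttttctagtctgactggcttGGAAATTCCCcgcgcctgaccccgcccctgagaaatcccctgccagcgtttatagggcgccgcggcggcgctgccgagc
Windows were at hand for 10 of the 17 chemokine, cytokine and NF-kB list members past 2-fold lower, and 4 of the 10 held a match (Cxcl1, Cxcl10, Nfkbia and Tnfaip3). Among the other compared members of the same lists, 6 of 17 with a window held one, and over all 27025 genes with a window the share was 5.14%.

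Matricellular genes were often higher on the CA39 array. Of 35 matricellular and glycoprotein matrix genes compared, 14 were past 2-fold higher and 3 lower (beside 3.88% and 1.44% of all genes). The median was 0.53, and 11 of the 14 lay in grid rows over 160. Postn (periostin), a matricellular protein of remodelling connective tissue, was not well above background on untreated (5.84), AR7 or CA77. It stood at 14.18 on CA39, at least 326-fold higher than untreated (grid row 32). Its log2 difference of 8.35 ranged from 7.44 to 9.76 over the alternatives. Thbs1 (thrombospondin 1), which can activate latent TGF-beta, was at 13.62 untreated, 12.85 with AR7, 17.32 with CA39 and 13.11 with CA77, 12.96-fold higher (grid row 203). Fbln2 (fibulin 2), a binder of elastic fibres, was at 11.13, 10.73, 14.14 and 10.38 in the same order, 8.02-fold higher (grid row 163). In all 3 genes the CA39 array was the high one and AR7 and CA77 were not above untreated, apart from a Postn reading on CA77 within the background. Sparcl1 (2.18), Fbln5 (2.17), Thbs2 (2.13), Fbn1 (1.85) and Ccn2 (1.65) followed. Fn1 (fibronectin) was at 16.52 on untreated and 17.98 on CA39. Tnc, at least 3.58-fold higher, and Nid1, 2.5-fold higher, did not stay past 2-fold in every alternative. Lower members were Smoc2 (-1.89), Ccn1 (-1.14) and Fbln1 (-1.10), the last again not in every alternative. Ccn1 and Ccn2, a pair of closely related matricellular genes, therefore differed in opposite directions.

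**Figure D3:**
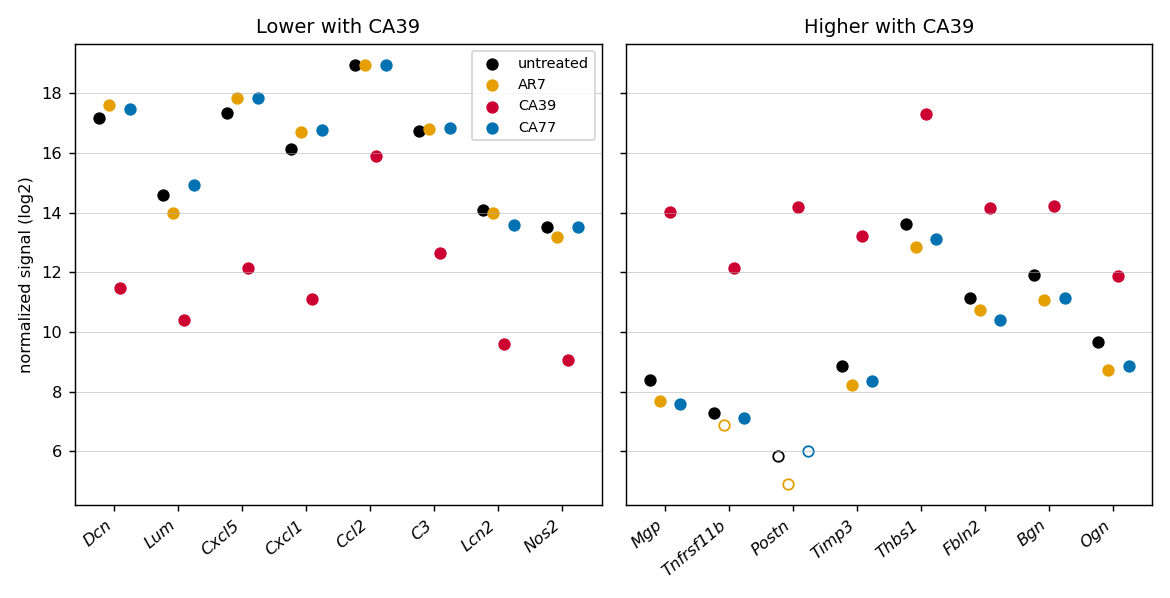
Normalized signal (log2, y axis) of 8 genes lower and 8 genes higher with CA39 on each of the 4 arrays, 1 point per array, filled where the probe was well above background and open where it was not. In every gene shown the CA39 point stands apart from the other 3, as for Dcn at 11.46 against 17.15 to 17.61. The genes were chosen for their difference with CA39.

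Small leucine-rich proteoglycans, which coat collagen fibrils and set their thickness, split into 2 higher and 2 lower among 11 compared, beside 3.88% and 1.44% of all genes. Dcn (decorin), the most abundant of them in connective tissue, was at 17.15 untreated, 17.61 with AR7, 11.46 with CA39 and 17.46 with CA77, 51.8-fold lower with CA39 (grid row 383). Lum (lumican) was at 14.60, 13.98, 10.39 and 14.91, 18.5-fold lower (grid row 46). Bgn (biglycan), the closest relative of decorin, was at 11.91, 11.06, 14.23 and 11.12, 4.97-fold higher (grid row 230), and Ogn (osteoglycin) at 9.68, 8.73, 11.89 and 8.85, 4.63-fold higher (grid row 341). Decorin and biglycan thus went in opposite directions on the CA39 array. On AR7 and CA77 neither passed 2-fold, the furthest being Bgn on AR7 at -0.85.

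Collagens themselves differed less. Of 20 fibrillar and network collagens, 3 were past 2-fold higher (Col6a3 at 1.19, Col5a2 at 1.12 and Col1a1 at 1.06) and 2 lower (Col8a1 at -1.34 and Col5a3 at -1.04), beside 3.88% and 1.44% of all genes, with a median of 0.24. The calls of Col1a1 and Col5a3 did not hold in every alternative. Enzymes that process collagen reached larger differences, with 4 of 19 higher, 0 lower and a median of 0.27. Adamts2, which trims the amino end of procollagen, was 12.7-fold higher by its brighter probe and 2.88-fold by the other. P4ha2, a subunit of prolyl 4-hydroxylase, was at 9.21 on untreated and 12.80 on CA39, 12.04-fold higher (grid row 357). P3h3, a prolyl 3-hydroxylase family member, was 10.8-fold higher from a dim signal, and Lox, which cross-links collagen, was higher by 2 probes (1.29 and 1.44).

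Among matrix-degrading enzymes and their inhibitors, 3 of 17 were higher and 1 lower, beside 3.88% and 1.44% of all genes. Timp3, an inhibitor bound to the matrix, was at 8.87 untreated, 8.22 with AR7, 13.22 with CA39 and 8.37 with CA77, 20.4-fold higher (grid row 218). The aggrecanases Adamts5 (2.56, and 1.51 by a second probe) and Adamts1 (2.38) were higher, while Mmp9 was at least 3.85-fold lower. Mineralization and bone genes gave 3 of 12 higher and 0 lower, beside the same shares of all genes. Mgp, an inhibitor of calcification, was at 8.39 untreated, 7.69 with AR7, 14.01 with CA39 and 7.57 with CA77, 49.1-fold higher (grid row 236). Tnfrsf11b (osteoprotegerin), the decoy receptor that blocks osteoclast formation, was at 7.29, 6.89, 12.15 and 7.13, 29.0-fold higher (grid row 131), with the AR7 value not well above background. The osteoblast transcription factors Runx2 (0.52) and Sp7 (-0.22) stayed within 2-fold. Itgb5 (1.71), Itga7 (1.72) and Itga8 (1.63) were higher and Itgb7 (-2.28) lower among 14 integrin subunits, the receptors for matrix proteins, again beside 3.88% and 1.44%.

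Feedback and signalling genes of the TGF-beta family moved in both directions. Of 21 compared, 5 were higher and 2 lower (beside 3.88% and 1.44% of all genes), with a median of -0.14. Pmepa1, a TGF-beta target that restrains SMAD signalling, was higher by 2 probes, at 8.16 untreated, 7.46 with AR7, 11.24 with CA39 and 7.29 with CA77 for the brighter and 7.97, 7.18, 10.89 and 7.07 for the second. The 2 probes gave 8.41-fold and 7.56-fold. Grem1, a secreted BMP antagonist, was 7.41-fold higher and Inhba, the activin A subunit, 3.84-fold (grid row 130). Id4 was 6.63-fold higher from a dim signal (6.02 untreated, grid row 145). The BMP modulators Bmper (-2.56, grid row 18) and Nog (-1.47, grid row 376) were lower. Nog was also low with CA77 (10.44 untreated, 9.80 with AR7, 8.96 with CA39 and 8.96 with CA77).

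Cholesterol synthesis genes were higher as a group by a small amount. Of 28 compared, 25 lay above 0, 7 were past 2-fold higher and 0 lower (beside 3.88% and 1.44% of all genes), and the median was 0.72, from 0.66 to 0.81 over the alternatives. The 7 were Pmvk, Nsdhl, Insig1, Hmgcs1, Cyp51, Mvk and Lss, between 2.01-fold and 2.36-fold, and Hmgcs1, Cyp51, Mvk and Lss did not pass 2-fold in every alternative. Hmgcs1, which makes the HMG-CoA that the pathway starts from, was at 15.59 untreated, 16.70 with CA39 and 15.08 with CA77, while AR7 differed from untreated by -0.59. Insig1, which holds the sterol sensor in the endoplasmic reticulum, was at 10.69, 9.77, 11.84 and 9.95. Both genes were highest on CA39 and lowest on AR7 and CA77, with untreated between. Pmvk was higher by 2 probes (1.24 and 1.19) and so was Nsdhl (1.18 and 1.33). The sterol exporter Abcg1, with a bound of -0.81, was among those below 0.

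The Hmgcs1 promoter is printed because the gene is a classical target of SREBP, the sterol-sensing factor. Its window is chr13:119690101-119690400 on the plus strand (RefSeq, GRCm38.p6), with a match of the sterol regulatory element, searched as TCACNCCAC on both strands, in capitals 137 bases before the start.
Hmgcs1: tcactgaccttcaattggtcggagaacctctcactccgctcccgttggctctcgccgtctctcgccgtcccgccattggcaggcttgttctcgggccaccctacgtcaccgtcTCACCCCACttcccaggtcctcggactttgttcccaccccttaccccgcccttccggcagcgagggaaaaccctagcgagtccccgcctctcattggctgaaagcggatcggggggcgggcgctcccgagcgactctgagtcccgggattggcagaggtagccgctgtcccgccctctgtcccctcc
It was the only one of the 7 higher genes with a match in its window. Among the other compared members of the list 0 of 12 with a window had one, and over all genes with a window the share was 1.44%.

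Genes of the ATF4 response, which supplies amino acids under stress, formed a second block of small differences. Of 33 compared, 32 lay above 0, 6 were past 2-fold higher and 0 lower (beside 3.88% and 1.44% of all genes), with a median of 0.35. Nupr1, a stress-induced nuclear protein, was at 13.07 untreated, 12.91 with AR7, 15.12 with CA39 and 12.70 with CA77, 4.13-fold higher (grid row 2). Chac1, which degrades glutathione, was at 13.41, 13.42, 15.41 and 13.05, 3.98-fold higher (grid row 287). Trib3 (1.48) and Ddit4 (1.30) followed, and Vldlr was at least 4.72-fold higher. Slc7a11, the cystine carrier, was at 6.76 untreated, 8.41 with AR7, 8.81 with CA39 and 7.31 with CA77 (grid row 16), so that here AR7 was close to CA39. The transcript of Atf4 itself differed by 0.35, Ddit3 (CHOP) by 0.83 and the synthetase gene Asns by 0.27. Endoplasmic reticulum stress genes gave 0 of 25 past 2-fold and a median of -0.01.

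Cell division genes were slightly lower. None of 30 S-phase genes passed 2-fold (0 higher, 0 lower, beside 3.88% and 1.44% of all genes), 28 lay below 0 and the median was -0.33. Of 32 G2/M genes 0 passed 2-fold, 31 lay below 0 and the median was -0.35. The lowest were Ccnb2 (-0.93), a mitotic cyclin, and Tyms (-0.93), thymidylate synthase, while Mki67 differed by -0.18 and Pcna by -0.09. With bulk RNA, fewer cells expressing a gene and less of its RNA per cell cannot be told apart.

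**Figure D4:**
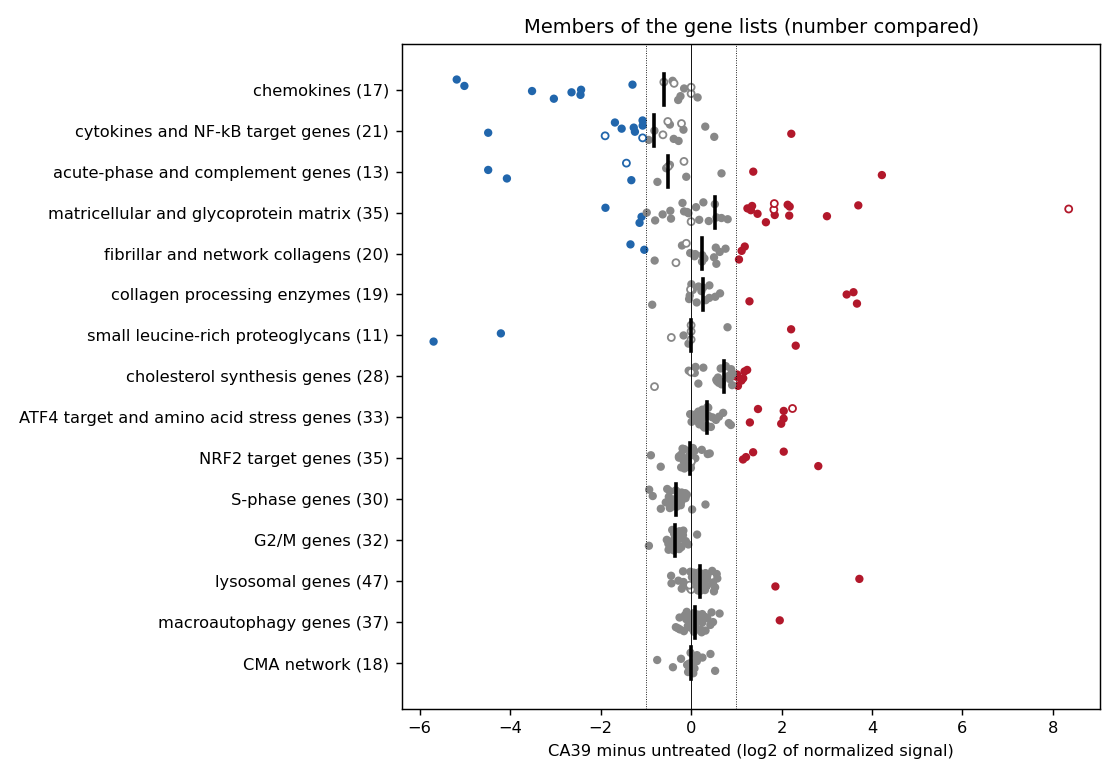
CA39 minus untreated (log2, x axis) of each compared member of 15 gene lists, 1 point per gene, red where 2-fold or more higher, blue where 2-fold or more lower, grey within 2-fold and open where the value is a bound, with the list median as a black bar. Chemokines spread to -5.18 and matricellular genes to a bound of 8.35, while the CMA network stays between -0.75 and 0.53.

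None of the 18 genes of the CMA network passed 2-fold (0 higher, 0 lower, beside 3.88% and 1.44% of all genes), and the median was 0.00, from -0.08 to 0.08 over the alternatives. Lamp2, whose splice form LAMP2A is the CMA receptor, was at 15.08 untreated, 15.18 with AR7, 15.10 with CA39 and 15.26 with CA77, while its second probe differed by -0.07. The probes were not matched to the single splice forms. Hspa8, encoding Hsc70, differed by -0.04, -0.15 and 0.03 by 3 probes, all close to the tolerance or within it. The highest member was Ctsa (0.53 and 0.48 by 2 probes), the protease that cleaves LAMP2A, and the lowest was Nfatc1 (-0.75 and -0.56), a transcription factor of the network. Rara, encoding the receptor the compounds were made for, differed by 0.43 and 0.38, and its corepressor gene Ncor1 by 0.13, 0.46 and 0.25.

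Lysosomal genes leaned upward by little, with 36 of 47 above 0, 2 past 2-fold higher (4.26%, near the 3.88% of all genes), 0 lower and a median of 0.20. Among the 2 was Ctsc, cathepsin C, which was dim on the untreated array and 3.64-fold higher. Lamp1 differed by 0.20 and Ctsd by 0.35. Of 37 macroautophagy genes 1 was higher, also near the share of all genes, and 0 lower, with a median of 0.09. The higher one was Optn, an autophagy receptor, 3.89-fold from a dim signal (grid row 142). Retinoid genes gave 2 of 29 higher (6.9%) and 3 lower (10.3%), beside 3.88% and 1.44% of all genes, with a median of 0.02. Rbp4, a retinol carrier, was at least 9.76-fold higher (grid row 126) and Crabp1, which binds retinoic acid in the cell, 7.31-fold higher (grid row 269). The enzymes Aldh1a1 (-2.01, grid row 57) and Aldh1a7 (-2.09, grid row 138) and the retinol transporter Stra6 (-1.22) were lower, the first a maker of retinoic acid. The Aldh1a1 and Aldh1a7 probes read alike on every array (15.33 and 15.56 untreated, 13.32 and 13.47 with CA39). Whether they share signal was not tested, so they may not be separate results. Cyp26b1, which degrades retinoic acid and is induced by it in many cells, differed by 0.10.

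Genes with 2 agreeing probes rest on separate spots, which lie far apart on the array for some genes and not for others. The pair that ranks Akap11 lay in grid rows 38 and 36, and both probes of Sntg1 (rows 98 and 26) and of Cyp3a11 (rows 95 and 18) lay in rows 1 to 160, where more genes were higher. On the higher side 45 of the 88 such genes had a symbol and 2 agreeing probes measured on both arrays. Among them Gatd3a, a mitochondrial protein, was at 8.03 untreated, 7.73 with AR7, 11.12 with CA39 and 8.24 with CA77. Its other probe was 7.83-fold higher. Dcp1b, of the mRNA decapping complex, was 7.51-fold and 10.6-fold higher by its 2 probes, and Ralgds, an exchange factor for Ral, 7.56-fold and 6.87-fold. Itgbl1, a secreted protein related to integrin beta subunits, was 5.75-fold and 5.58-fold higher, and read 11.09 untreated, 9.29 with AR7, 13.61 with CA39 and 9.80 with CA77. Also among the first 12 were Xlr3b, Sntg1, Cyp3a11, Akap11, Pla2g7 and Serpina1a, between 3.96-fold and 8.74-fold over the 2 probes that rank them, apart from Pmepa1 above. Xlr3b, Cyp3a11, Serpina1a and Gatd3a have close copies in the genome, and which copy was measured is uncertain.

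On the lower side 15 of the 37 genes with 2 agreeing probes had a symbol and 2 such probes measured on both arrays. After C3, Prl2c5 of the proliferin group was at 16.25 untreated, 17.40 with AR7, 12.52 with CA39 and 16.90 with CA77, 13.2-fold lower, with 13.5-fold by the other probe. Csf2rb2, a receptor subunit for interleukin 3, was 5.6-fold and 3.67-fold lower. Il1rl1, the interleukin 33 receptor, was lower by 3 probes (-1.16, -1.29 and -1.39), although its standing value missed 2-fold in 1 or more alternatives. Plscr1, a phospholipid scramblase, was lower by -1.45 and -1.54, the iron importer Slc11a2 by -1.29 and -1.16 and Lrig1, a brake on EGF receptor signalling, by -1.19 and -1.06. Serpinb9e was 2.26-fold lower than untreated, while AR7 (14.44) and CA77 (13.89) were above the untreated level of 12.64. Gpr137b, a lysosomal membrane protein, and its copy Gpr137b-ps were lower by 5 probes in all, between -1.27 and -1.87, and the copies share sequence, as do those of the Prl2c family.

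Single probes and bounds extend both ends. Tmsb4x, the actin-binding thymosin beta 4, was 20.3-fold higher by a single probe in grid row 226, at 7.71 on untreated and 12.06 on CA39. Among genes with 2 agreeing bounds, Pdzrn4 was at least 15.4-fold and 6.75-fold higher by its 2 probes. Trabd2b, an inhibitor of Wnt proteins, was at least 6.76-fold and 4.48-fold higher, with another Trabd2b probe at 0.00. Gm5591 had 2 bounds past 2-fold higher, but its brightest probe differed by 0.20. Lower by 2 bounds were Srgap1 (at least 16.5-fold), Zfpm2 (at least 10.3-fold), Etl4 (at least 9.2-fold) and Slco2b1 (at least 7.55-fold), each well above background on the other 3 arrays.

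AR7 and CA77 were compared with CA39 at the same dose and time, over list members well above background on all 4 arrays. The differences from untreated share the untreated array, and with 1 array each no test or interval of a difference between compounds could be had. Chemokines (13 members) had a median difference from untreated of -2.43 with CA39, 0.16 with AR7 and 0.20 with CA77. This CA39 median depends on the members kept, as it was -0.60 over all 17 compared. Cholesterol synthesis genes (26) stood at 0.80 with CA39 and at -0.48 with both AR7 and CA77, so the 3 treated cultures lay on either side of the untreated one. Set against AR7 and CA77 directly, with DMSO on both sides, the cholesterol genes had a median of 1.16 and 1.18. Fibrillar and network collagens (18) were at 0.27, -0.38 and -0.33 with CA39, AR7 and CA77, and matricellular genes (31) at 0.39, -0.28 and -0.29. NRF2 target genes (34), which detoxify electrophiles, showed the reverse order, with -0.04 for CA39 against 0.65 for AR7 and 0.39 for CA77. Gsta4, a glutathione transferase, was at 9.84 untreated, 14.53 with AR7, 10.99 with CA39 and 14.02 with CA77. Nqo1, a quinone reductase, was at 10.94, 13.19, 11.30 and 13.23. CMA network genes were at 0.00, 0.08 and 0.14, and all 13047 genes with a symbol at -0.02, -0.01 and -0.01.

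**Figure D5:**
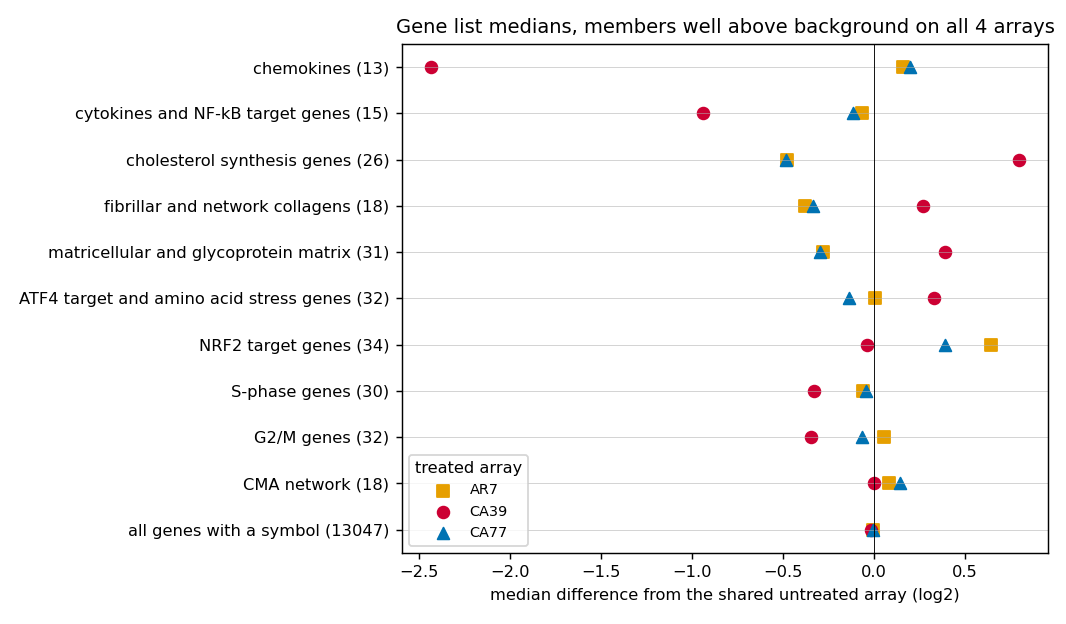
Median log2 difference from the shared untreated array (x axis) of 10 gene lists and of all genes with a symbol, for AR7 (squares), CA39 (circles) and CA77 (triangles), 1 array each, with the number of members well above background on all 4 arrays in brackets. CA39 lies apart from AR7 and CA77 for chemokines (-2.43, but -0.60 over all 17 compared) and cholesterol synthesis genes (0.80). AR7 and CA77 are the higher ones for NRF2 target genes (0.65 and 0.39 against -0.04).

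Marker genes were used to check the label. Of 12 fibroblast markers, 12 were well above background on CA39 and 11 on each other array, where Pdgfrb was not, and their summed linear signal ranged from 1086000 to 1329000 over the arrays. Pdgfrb, a receptor of mesenchymal cells, was at least 8.49-fold higher with CA39 (grid row 61). Within this list 4 genes were higher and 2 lower, including Dcn, beside 3.88% and 1.44% of all genes. The summed signal of 7 epithelial markers was 2234 on CA39 and 904 to 1050 on the others, with Krt8 5.2-fold higher and Epcam at least 4.18-fold, while Cdh1 and Cldn4 were not well above background on CA39. The 9 chondrocyte markers summed to 12730 on CA39 and 5687 to 7042 elsewhere, with Col2a1, Matn1 and Matn3 not well above background on CA39. Sox9, the brightest of them (12.48 on untreated), differed by 0.99, while 0 of the 7 compared passed 2-fold, 4 lay below 0 and their median was -0.06. Sums of adipocyte, osteoblast, smooth muscle, macrophage and endothelial markers differed by at most 1.53 times between the lowest and the highest of the 4 arrays. The part of these markers in the results above was not tested.

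The arrays lay on 1 slide, untreated in slide row 1 and the treated arrays in slide row 2, and the effects of the slide row and of treatment cannot be told apart. Median net signal was 159 on untreated and 160 on CA39 (scanner units), but 70.2% of gene spots were well above background on untreated and 53.3% on CA39. That difference left 6242 genes detected on the untreated array only and 357 on CA39 only, which limits the lower calls of dim genes.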

How the data were processed

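Total RNA of 4 NIH-3T3 cultures (untreated, AR7, CA39 and CA77, 1 each, grouped by title) was labelled with Cy3 by the authors and hybridized to Agilent Mouse 8x60K arrays. The deposited scanner values, from Feature Extraction 10.7.3.1, give for each spot an intensity (linear, not normalized), its local background and marks of quality. The authors' methods name RMA by the oligo package. The deposited series table held the background-subtracted intensity, unscaled, with column medians of 90.6, 91.1, 84.1 and 76.0 in the order above. All per-sample columns could be assigned (0 left out).

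Median spot and background signals were corrected by normexp with no offset (limma 3.58.1 in R 4.3.3). Control spots were then left out, the 4 arrays quantile normalized and values put on the log2 scale. Spots with an outlier mark on either array were left out and the other spots of a probe averaged. Detection of a probe required more than 50% of its spots to be well above background. Accessions were matched without versions to RefSeq names of GRCm38.p6, which named 27605 of 55681 probes (20943 symbols), and other probes kept the array's name. The array design cites an earlier build, so no probe coordinates are given. The brightest probe over the 4 arrays stood for a gene. A call was a difference of 2-fold or more, with undetected values set to at least the lowest detected signal of their array (log2 5.15 on untreated, 6.20 on CA39). The precision is limited by 1 array per group.

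The genes named are the 12 per direction with 2 agreeing probes past 2-fold, ranked by the smaller of the 2 largest measured differences; the 4 single-probe genes per direction with the largest measured difference in grid rows over 160; up to 4 per direction with 2 agreeing bounds; examples of list members past 2-fold; and the extremes of the CMA network. Some other list members are named as context, after their values were seen. A few genes that these rules name are not reported here. The members and lists were chosen with earlier results of these data known. Alternatives covered the background offset, 3 other normalizations or tables, the filter, the floor, the threshold, position and the probe that stands for a gene. Scripts were tested on simulated data. Python 3.11.15, pandas 2.3.3 and matplotlib 3.10.9 were used.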

Additional observations from a re-analysis of the deposited data

How the results depend on the processing

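Of 174 named genes and list members, 0 called past 2-fold changed direction under the alternative processing run here, and 146 stayed past it in each one that gave a value. With AR7 or CA77, also in DMSO, in place of untreated, 113 of 134 and 128 of 145 such genes stayed past 2-fold the same way. The CA39 array is shared and the genes were picked by its values, which favours such counts, so the part of the vehicle was not tested. Gsta4 turned from 1.15 to -3.54 and -3.03, Ptgr1 from 1.37 to -0.45 and -0.45, and Lipe from 1.03 to -0.44 against AR7. Of 441 list medians recomputed, 415 moved by less than a tolerance of 0.15 (log2). The 403 lower genes became 625 with the processed signal at the 75th percentile, 613 with the deposited series table, 651 with no detection filter and no floor, and 240 when both arrays had to be well above background. In grid rows over 160 the 268 lower genes became 414, 413, 410 and 155 in the same order, and the 37 with 2 agreeing probes became 22 with detection on both arrays. At 1.5-fold, 1948 genes were higher and 1377 lower, 874 and 963 of them in rows over 160, and 205 and 138 had 2 agreeing probes. The causes were not tested, apart from the lower threshold and the smaller sets, which act by construction. Of all calls 73.0% were higher, and 65.9% to 76.3% with the other scalings, filters and floors. The median of the chemokines moved furthest, between -2.43 and -0.31, and some medians near 0 changed sign, as that of the CMA network between -0.08 and 0.08. No paired analysis was possible because each group holds 1 array. What limits every value is that 1 culture stands for a group, so no error between cultures is known, and that vehicle, slide row and treatment coincide against untreated.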

Other observations

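Further gene groups were described the same way, with the share of all genes past 2-fold at 3.88% higher and 1.44% lower. Of 20 prostaglandin and eicosanoid genes 4 were higher and 0 lower. Tbxas1, thromboxane synthase, was at least 30.4-fold higher (not well above background on untreated, 10.28 on CA39, grid row 10), and Ptger4, a receptor for prostaglandin E2, and Ptgis, prostacyclin synthase, were 3.61-fold and 2.69-fold higher. Of 35 growth factors and receptors 5 were higher and 0 lower. Among the 5 was Angpt1 (angiopoietin 1), at 7.43 untreated, 6.26 with AR7 (not well above background), 10.84 with CA39 and 6.78 with CA77. Pdgfc, a growth factor for mesenchymal cells, differed by 2.44 (grid row 65). Fgf21, a hormone of metabolic stress, was at least 9.72-fold higher. Of 21 Wnt pathway genes 4 were higher and 1 lower. The receptor gene Fzd1 was 13.1-fold higher from a dim signal (grid row 189). Nkd1, a feedback inhibitor (grid row 100), read 5.92 untreated, 5.72 with AR7, 9.87 with CA39 and 9.11 with CA77, so that CA77 was high as well. The Nkd1 value on AR7 was not well above background. Of 23 immediate early genes 6 were lower, among them Ier3 (-1.67), Ier2 (-1.30) and Jun (-1.12), and 1 was higher, Klf2 (2.83-fold). Ier3 was above untreated on AR7 and CA77 (13.82 on untreated, 14.83, 12.14 on CA39 and 15.18).

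Fas, the death receptor and a p53 target, was at 13.85 untreated, 13.63 with AR7, 10.44 with CA39 and 13.92 with CA77. It was 10.6-fold lower with CA39 (median grid row 121.5 over its spots), 1 of 2 lower genes among 21 p53 targets. NRF2 target genes had 5 of 35 higher, including Cbr3 (7.02-fold, grid row 137) and Hmox1, heme oxygenase 1, by 2 probes (1.21 and 1.17). Interferon-stimulated genes had 3 higher and 2 lower of 26, with Bst2 (tetherin) 7.36-fold higher. Glycolysis and hypoxia genes had 27 of 33 above 0 and 2 higher, one of them Car9, carbonic anhydrase 9, 6.58-fold (grid row 61). Ndn, an imprinted growth suppressor, was 4.05-fold higher. None of 38 mitochondrial respiratory chain genes and none of 23 heat shock protein genes passed 2-fold, with medians of -0.02 and -0.08.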
